A study of Mus musculus with 9 samples.

Results

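This section describes 37 DNA damage checkpoint and repair genes in mouse nuclear-transfer embryonic stem cells (ntESCs) with the genotypes Terc-/-, Terc+/- and Terc+/+. Terc is the gene for the RNA template of telomerase. They are the members of a list of 41 checkpoint and repair genes that had at least 1 probe under their symbol in the platform annotation, out of 16110 named genes and 18666 features measured. The 37 genes had 70 probes, and a gene's value is that of its brightest probe unless another probe is mentioned. Atr, Mdc1, Xrcc2 and Fanca had no probe under their symbol and were not analysed here. The list names known checkpoint and repair genes, and it was drawn up with earlier results of these data known.

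The samples were Terc-/-, Terc+/- and Terc+/+ ntESCs with 3 bead arrays per genotype, 9 in all. All cells were of the C57BL/6 strain, were grown without serum in KSR/KO-DMEM medium with LIF on a layer of mouse embryonic fibroblasts (MEFs) stopped with mitomycin-C, and were freed of the MEFs before RNA was extracted. The replicates were called biological repeats. The labels do not say if the repeats were different lines or different cultures, and p-values measure the spread between these samples, which may be partly technical. ntESCs are pluripotent lines derived after transfer of a somatic cell's nucleus to an egg without its own. No probe carried the symbol Terc, so the genotypes rest on the labels. Values are log2 intensities, on which a difference of 1 is a 2-fold change, and a probe near the array median is close to the dim end of the scale.

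A cell that finds damaged DNA halts its cycle and repairs the lesion. The kinases Atm and Atr sense breaks and stalled forks and signal through Chek2 and Chek1, while the Rad9a-Rad1-Hus1 clamp, loaded by Rad17, marks the site. Homologous recombination copies a sister chromatid, end joining ligates broken ends directly, mismatch repair corrects replication errors, and base excision repair replaces single damaged bases. Cells without telomerase lose telomere sequence as they divide, and chromosome ends that become too short are read by the same machinery as breaks. Mouse embryonic stem cells divide fast and rely strongly on homologous recombination.

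Markers of both the labelled cells and the feeder layer were present. All 13 stem cell markers were measured, Pou5f1 between 11.13 and 12.70 and Dppa5a between 13.27 and 14.10. In Terc-/- against Terc+/+ 4 of them had a higher and 3 a lower mean at an unadjusted p under 0.05 in limma (53.8%, against 10.6% of all features). The higher ones were Lin28a (0.80), Sall4 (0.43), Tdgf1 (0.54) and Dppa4 (0.23), and the lower ones Esrrb (-0.47), Klf4 (-0.75) and Tcl1 (-0.74). In Terc+/- against Terc+/+ 4 were higher and 1 lower (38.5%, against 8.59%). In Terc-/- against Terc+/+ Lin28a passed the adjusted threshold (0.80, SE 0.09, adjusted p = 0.0458 with limma). That call held in 4 of 18 alternative settings, with differences from 0.72 to 0.89 and adjusted p from 0.000961 to 0.267. The part of these marker differences in the members' values was not tested. Of 30 feeder fibroblast markers 28 were measured. Lox, an enzyme that crosslinks collagen, had the widest range of them over the arrays, 29.2-fold. Postn had the narrowest, 1.31-fold (5.35 to 5.74, below the array median). Against Terc+/+ the mean was higher for 22 markers and lower for 6 in Terc-/-, and higher for 6 and lower for 22 in Terc+/-. The feeder score, the mean deviation of the 28 markers from their means over 9 arrays, was -0.20, 0.06 and 1.16 in Terc-/- replicates 1 to 3, 0.86, -0.73 and -0.88 in Terc+/- replicates 1 to 3, and 0.01, 0.98 and -1.26 in Terc+/+ replicates 1 to 3. It varied within each genotype over a wider range than between the genotype means of 0.34, -0.25 and -0.09. Terc+/+ replicate 3 stood apart, with the highest value of 23.5% and the lowest of 20.8% of all features.

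The promoter windows of 3 genes are shown because Msh6, Xrcc6 and Xrcc1 were the 3 members with an unadjusted p under 0.05 in both comparisons against Terc+/+. Each runs 5′ to 3′ on the plus strand from 250 bases before to 30 bases after the RefSeq gene start in GRCm38.p6. Capitals mark matches that lie wholly within the print, to an E2F site (TTTCCCGC, TTTCGCGC, TTTGCCGC or TTTGGCGC) or to a CCAAT box (CCAAT), searched on both strands. E2F factors drive genes of S phase, and the CCAAT box binds NF-Y. Msh6 lies at chr17:87974800-87975079, Xrcc6 at chr15:82016119-82016398 and Xrcc1 at chr7:24546449-24546728.
Msh6: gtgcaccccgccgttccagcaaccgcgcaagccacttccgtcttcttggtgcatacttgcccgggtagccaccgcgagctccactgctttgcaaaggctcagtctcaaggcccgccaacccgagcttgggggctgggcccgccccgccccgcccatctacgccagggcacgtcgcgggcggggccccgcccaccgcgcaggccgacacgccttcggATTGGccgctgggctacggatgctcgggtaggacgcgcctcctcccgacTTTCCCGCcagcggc
Xrcc6: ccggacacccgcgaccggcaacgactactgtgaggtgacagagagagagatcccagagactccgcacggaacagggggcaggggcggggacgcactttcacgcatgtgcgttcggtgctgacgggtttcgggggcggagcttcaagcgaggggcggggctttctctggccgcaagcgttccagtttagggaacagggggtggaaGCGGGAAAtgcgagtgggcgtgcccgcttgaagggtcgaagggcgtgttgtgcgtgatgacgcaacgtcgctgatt
Xrcc1: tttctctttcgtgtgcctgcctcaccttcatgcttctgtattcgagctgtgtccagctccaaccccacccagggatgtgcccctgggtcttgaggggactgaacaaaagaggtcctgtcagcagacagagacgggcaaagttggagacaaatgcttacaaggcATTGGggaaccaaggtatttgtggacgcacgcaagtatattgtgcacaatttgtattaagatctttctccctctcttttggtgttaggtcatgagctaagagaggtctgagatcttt

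The Msh6 window held an E2F match 15 bases after the gene start and a CCAAT match at -34. In Xrcc6 the E2F match began at -46, on the minus strand. A CCAAT match of Xrcc6 began 27 bases after the gene start and ran past the printed end, so it is in lower case. Xrcc1 had no match to the E2F letters in its window and 1 CCAAT match at -87. Of the 41 listed genes, 35 matched a RefSeq promoter window of 300 bases, and 8 of those (22.9%) held an E2F match: Bard1, Brca2, Chek2, Fancg, Mdc1, Msh6, Rad51c and Xrcc6. The same letters occurred in 2.32% of 27025 windows, 1 for each gene of the table. GC boxes (GGGCGG, both strands) occurred in 71.4% of the member windows and 35.9% of all windows, and CCAAT boxes in 48.6% and 37.9%. TATAAA occurred in 5.71% of the member windows and 14.2% of all. The E2F and GC box letters can overlap in sequence, and the matches are descriptions of letters, not of binding.

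No checkpoint or repair gene differed between Terc-/- and Terc+/+ ntESCs past the threshold. None of the 37 had a Benjamini-Hochberg adjusted p under 0.05 with limma (0 of 37), where 0.0536% of all features were called, and the smallest adjusted p of a member was 0.149. The mean was higher in Terc-/- for 16 members and lower for 21. Their median log2 difference was -0.033, and that of all features 0.005. An unadjusted p under 0.05 was reached by 5 members (13.5%), Atm, Xrcc6 and Msh6 with a higher mean and Rad1 and Xrcc1 with a lower one, against 10.6% of all features. By direction, 5.3% of all features reached it with a higher and 5.31% with a lower mean. For 6 members the 3 Terc-/- arrays did not overlap with the 3 Terc+/+ arrays, against 14.9% of all features. Atm and Msh6 were higher (7.49% of all features) and Rad1, Wrn, Xrcc1 and Xrcc5 lower (7.43%). These shares lie near those of all features. The 95% interval of the difference lay within 1 log2 unit of 0 for 36 of the 37 members and within 0.5 for 13, the exception to the first being Hus1, whose interval ran from -0.30 to 1.21.

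**Figure D1:**
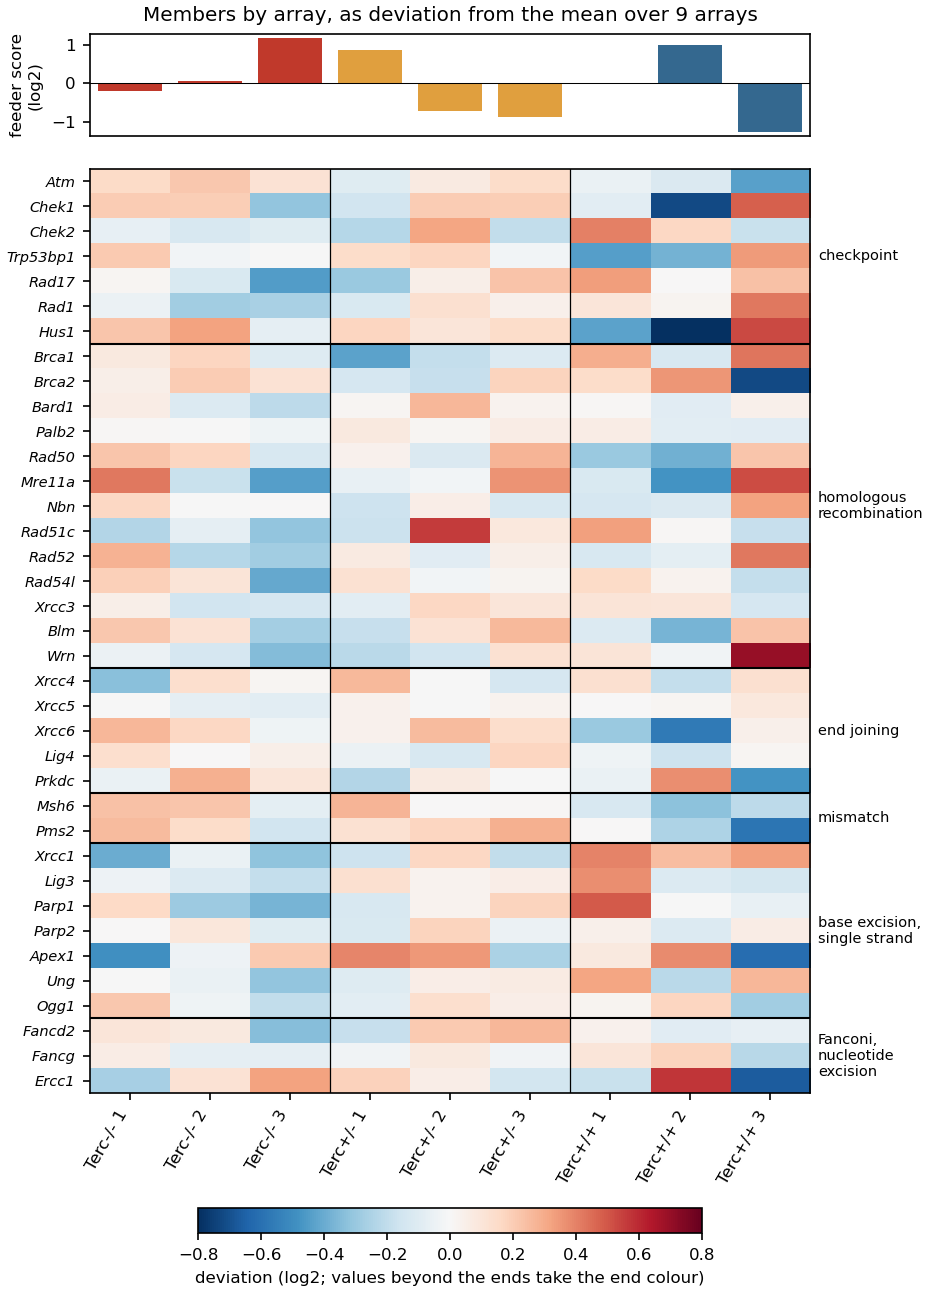
Each row is a member in pathway order and each column an array, coloured by its log2 deviation from the gene's mean over 9 arrays, with the feeder score of each array as bars above. Terc+/+ replicates 2 and 3, with feeder scores of 0.98 and -1.26, show opposite colours in several rows such as Chek1, Hus1, Brca2 and Ercc1.

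No member passed the threshold between Terc+/- and Terc+/+ either. With limma 0 of 37 were called, as were 0.0% of all features, and the smallest adjusted p of a member was 0.402. The mean was higher in Terc+/- for 24 members and lower for 13, with a median of 0.046 beside 0.004 for all features. An unadjusted p under 0.05 was reached by 5 members (13.5%), Pms2, Xrcc6 and Msh6 with a higher mean and Xrcc1 and Brca1 with a lower one, against 8.59% of all features (4.73% higher and 3.86% lower). The arrays did not overlap for 3 members, against 12.6% of all features. Msh6 and Pms2 were higher (7.29% of all features) and Xrcc1 lower (5.3%). This comparison and the one before share the Terc+/+ arrays.

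Between Terc-/- and Terc+/- ntESCs no member reached even an unadjusted p under 0.05 (0 of 37, against 1.76% of all features, 0.814% higher and 0.943% lower), and 0.0% of all features were called with limma. The mean was lower in Terc-/- for 27 members and higher for 10, with a median of -0.059 beside -0.004 for all features. The differences ran from -0.36 for Rad51c to 0.29 for Brca1, and the 95% interval lay within 1 log2 unit of 0 for all 37. The arrays did not overlap for 3 members, against 7.7% of all features, with Brca1 higher (3.76% of all features) and Lig3 and Palb2 lower (3.94%).

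Without Terc+/+ replicate 3, 0 of 37 members were called in each comparison, as with it, where 1.54% of all features were called in Terc-/- and 0.15% in Terc+/- against Terc+/+. An unadjusted p under 0.05 was then reached by 8 members in Terc-/- against Terc+/+ (21.6%, against 15.6% of all features), with Hus1, Trp53bp1 and Rad50 beside the 5 named above. In Terc+/- against Terc+/+ it was reached by 7 (18.9%, against 13.8%): Trp53bp1, Hus1, Xrcc6, Rad50, Xrcc1, Msh6 and Brca2. Without Terc+/+ replicate 2 instead, it was reached by 7 members in Terc-/- (18.9%, against 11.8%): Xrcc1, Ung, Rad1, Atm, Wrn, Rad17 and Brca1. In Terc+/- it was then reached by 5 (13.5%, against 9.68%): Brca1, Xrcc1, Pms2, Ung and Wrn. Hus1, Trp53bp1, Rad50, Xrcc6 and Msh6 were not among them in either comparison. With array quality weights, which gave Terc+/+ replicate 1 a weight of 7.01 and Terc+/+ replicate 3 a weight of 0.214, 12 members were called in Terc-/- against Terc+/+ (16.1% of all features) and 2 in Terc+/- against Terc+/+ (3.44%). With the feeder score as a covariate 0 members were called in Terc-/- (0.873% of all features) and 1, Brca1, in Terc+/- against Terc+/+ (1.18%).

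**Figure D2:**
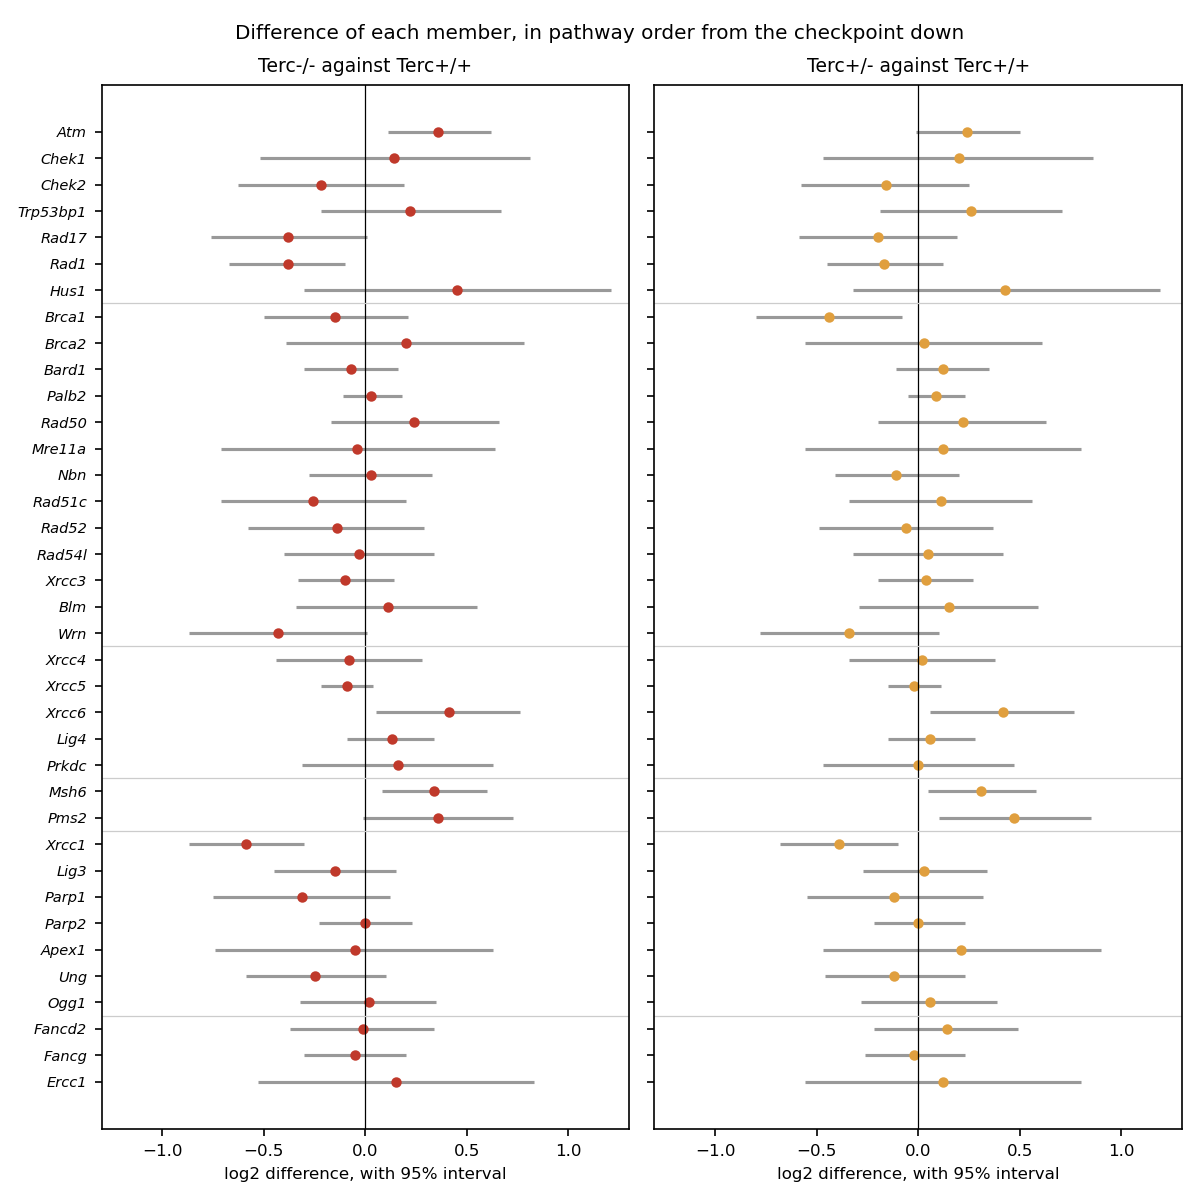
Points are log2 differences of the 37 members in Terc-/- against Terc+/+ (left) and Terc+/- against Terc+/+ (right), with 95% intervals from limma. All points lie between -0.59 and 0.47, and Hus1 has the widest interval in both panels.

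Among the checkpoint genes, Atm, the kinase activated by double-strand breaks, had 7.54, 7.60 and 7.50 in Terc-/-, 7.29, 7.46 and 7.53 in Terc+/-, and 7.33, 7.27 and 6.95 in Terc+/+ replicates 1 to 3. The 3 Terc-/- arrays lay above the 3 Terc+/+ arrays, and the Terc+/- arrays overlapped with both. The difference of Terc-/- from Terc+/+ was 0.36 (SE 0.11, adjusted p = 0.290 with limma), and it was 0.24 (SE 0.09) without Terc+/+ replicate 3. The other 2 Atm probes gave 0.14 and 0.17.

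Rad1, a subunit of the checkpoint clamp, had 8.64, 8.41 and 8.43 in Terc-/-, 8.57, 8.82 and 8.73 in Terc+/-, and 8.79, 8.71 and 9.11 in Terc+/+. All Terc-/- arrays were below all Terc+/+ arrays, by 0.38 between the means (a log2 difference of -0.38, SE 0.12, adjusted p = 0.315 with limma). It was -0.26 without Terc+/+ replicate 3.

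Hus1, another subunit of that clamp, had the widest spread of the 37 genes. Its values were 9.61, 9.71 and 9.32 in Terc-/-, 9.56, 9.49 and 9.54 in Terc+/-, and 8.96, 8.41 and 9.92 in Terc+/+. The Terc+/+ arrays held both its lowest and its highest value, 2.84-fold apart, and enclosed the other 6 arrays. The difference of 0.45 between Terc-/- and Terc+/+ (SE 0.33) was smaller than that spread. Without Terc+/+ replicate 3 it was 0.86 (SE 0.17, adjusted p = 0.0566 with limma). Without Terc+/+ replicate 2, the lowest Hus1 array, its unadjusted p in limma was not under 0.05. The other 2 Hus1 probes gave 0.42 and 0.06 on all arrays.

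Rad17, which loads the clamp, averaged 9.05 ± 0.24 in Terc-/- ntESCs, 9.23 ± 0.27 in Terc+/- ntESCs and 9.43 ± 0.17 in Terc+/+ ntESCs (SD, n = 3 each). Chek2, the effector kinase below Atm, averaged 7.82 ± 0.03, 7.88 ± 0.30 and 8.05 ± 0.29 in the same order. Trp53bp1, a chromatin reader that steers breaks to end joining, averaged 9.38 ± 0.13 in Terc-/-, 9.42 ± 0.11 in Terc+/- and 9.16 ± 0.43 in Terc+/+, and its difference of Terc-/- from Terc+/+ was 0.22, or 0.47 without Terc+/+ replicate 3 (adjusted p = 0.0648 with limma). In these 3 genes and in Chek1, the kinase below Atr (6.93 ± 0.30, 6.98 ± 0.20 and 6.79 ± 0.60), the arrays of the genotypes overlapped. With all 9 arrays none of them had an unadjusted p under 0.05. Without Terc+/+ replicate 3 Trp53bp1 had one in both comparisons against Terc+/+. Without Terc+/+ replicate 2 it had none there, and Rad17 had one in Terc-/- against Terc+/+.

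On all 9 arrays, none of the 13 homologous recombination members measured reached an unadjusted p under 0.05 in Terc-/- against Terc+/+. In Terc+/- against Terc+/+ 1 did. That was Brca1, whose protein helps to resect break ends. Brca1 had 7.67, 7.76 and 7.49 in Terc-/-, 7.16, 7.40 and 7.48 in Terc+/-, and 7.88, 7.46 and 8.02 in Terc+/+. Terc+/- arrays were low, but the highest of them was above Terc+/+ replicate 2. The difference of Terc+/- from Terc+/+ was -0.44 (SE 0.16, adjusted p = 0.463 with limma) and -0.32 without Terc+/+ replicate 3. Bard1, the partner with which Brca1 forms a ubiquitin ligase, averaged 7.16 ± 0.14 in Terc-/- ntESCs, 7.36 ± 0.14 in Terc+/- ntESCs and 7.24 ± 0.07 in Terc+/+ ntESCs. Brca2, which is needed for strand exchange, averaged 8.57 ± 0.08, 8.40 ± 0.19 and 8.37 ± 0.57 in the same order. Its Terc+/+ replicate 3 was the lowest array, at 7.72, and without it the difference of Terc+/- from Terc+/+ was -0.30 (unadjusted p = 0.0472, adjusted p = 0.353 with limma), against 0.03 on all arrays.

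The Mre11a-Rad50-Nbn complex binds break ends and activates Atm. Rad50 averaged 9.30 ± 0.19 in Terc-/-, 9.27 ± 0.20 in Terc+/- and 9.06 ± 0.33 in Terc+/+. Without Terc+/+ replicate 3 its differences from Terc+/+ were 0.43 in Terc-/- and 0.40 in Terc+/- (adjusted p = 0.192 and 0.264 with limma), against 0.24 and 0.22 on all arrays. Neither had an unadjusted p under 0.05 in limma without Terc+/+ replicate 2. Mre11a averaged 9.40 ± 0.44, 9.55 ± 0.23 and 9.43 ± 0.50. The probes of Nbn (5.69, 5.56 and 5.66 as means) and of Palb2 (5.69, 5.75 and 5.66), which bridges Brca1 and Brca2, lay below the array median in all genotypes. The RecQ helicases Blm and Wrn, which unwind recombination and fork structures, averaged 10.75 ± 0.26 and 7.42 ± 0.15 in Terc-/-, 10.79 ± 0.22 and 7.51 ± 0.18 in Terc+/-, and 10.64 ± 0.30 and 7.85 ± 0.39 in Terc+/+. The 3 Terc-/- arrays of Wrn lay below the 3 Terc+/+ arrays (-0.43, SE 0.19, adjusted p = 0.485 with limma), and the difference was -0.21 without Terc+/+ replicate 3. The remaining recombination genes, Rad51c, Rad52, Rad54l and Xrcc3, had differences from Terc+/+ between -0.26 and 0.11.

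In end joining, Xrcc6 encodes Ku70, which with Ku80 (Xrcc5) caps broken ends and recruits the kinase Prkdc. Xrcc6 had 11.64, 11.54 and 11.34 in Terc-/-, 11.41, 11.63 and 11.52 in Terc+/-, and 11.08, 10.81 and 11.42 in Terc+/+. Terc+/+ replicates 1 and 2 were the 2 lowest arrays, while replicate 3 overlapped with both mutant genotypes. The difference from Terc+/+ was 0.41 in Terc-/- (adjusted p = 0.396) and 0.42 in Terc+/- (adjusted p = 0.485), with an SE of 0.15 each in limma. Without Terc+/+ replicate 3 they were 0.57 and 0.58, still not past the threshold (adjusted p = 0.0692 and 0.103). Over 18 alternative settings they ran from 0.24 to 0.57 and from 0.27 to 0.58. Without Terc+/+ replicate 2, the lowest Xrcc6 array, neither had an unadjusted p under 0.05 in limma. A second Xrcc6 probe gave 0.31 and 0.45, and the dimmest one 0.00 and 0.25.

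The Xrcc5 probe was below the array median in all genotypes (means 5.60, 5.67 and 5.69). Prkdc averaged 7.21 ± 0.17 in Terc-/-, 7.05 ± 0.16 in Terc+/- and 7.05 ± 0.42 in Terc+/+. Xrcc4 and Lig4, which together ligate the ends, had differences from Terc+/+ of -0.08 and 0.13 in Terc-/- and of 0.02 and 0.06 in Terc+/-.

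Both mismatch repair members had higher means in the mutants, and neither passed. Msh6 takes part in recognising mismatches. It had 13.18, 13.17 and 12.87 in Terc-/-, 13.22, 12.95 and 12.96 in Terc+/-, and 12.82, 12.62 and 12.74 in Terc+/+. All 6 mutant arrays lay above all 3 Terc+/+ arrays, with differences of 0.34 and 0.31 (SE 0.11 each, adjusted p = 0.330 and 0.478 with limma). The second Msh6 probe gave 0.45 and 0.35. Pms2, which nicks the strand to be corrected, had 8.16, 8.05 and 7.75 in Terc-/-, 8.03, 8.08 and 8.19 in Terc+/-, and 7.91, 7.66 and 7.32 in Terc+/+. The Terc+/- arrays were above all Terc+/+ arrays (0.47, SE 0.16, adjusted p = 0.435 with limma), and the lowest Terc-/- array was not (0.36, SE 0.16). Without Terc+/+ replicate 3, its lowest array, the values were 0.32 in Terc+/- and 0.20 in Terc-/-.

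Xrcc1 had the smallest p of the 37 in both comparisons against Terc+/+. It encodes the scaffold of single-strand break and base excision repair, on which Lig3 and Parp1 gather. Xrcc1 had 8.72, 9.06 and 8.79 in Terc-/-, 8.95, 9.28 and 8.92 in Terc+/-, and 9.51, 9.36 and 9.44 in Terc+/+. The 6 mutant arrays all lay below the 3 Terc+/+ arrays, and the mutant genotypes overlapped with each other. As for Msh6, the share of all features so separated was not counted. The difference was -0.59 in Terc-/- (SE 0.12, 95% interval -0.87 to -0.30, 1.5-fold, adjusted p = 0.149 with limma) and -0.39 in Terc+/- (SE 0.12, adjusted p = 0.402). Without Terc+/+ replicate 3 these were -0.58 and -0.39. Xrcc1 had 1 probe, so no second probe could be set beside it.

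**Figure D3:**
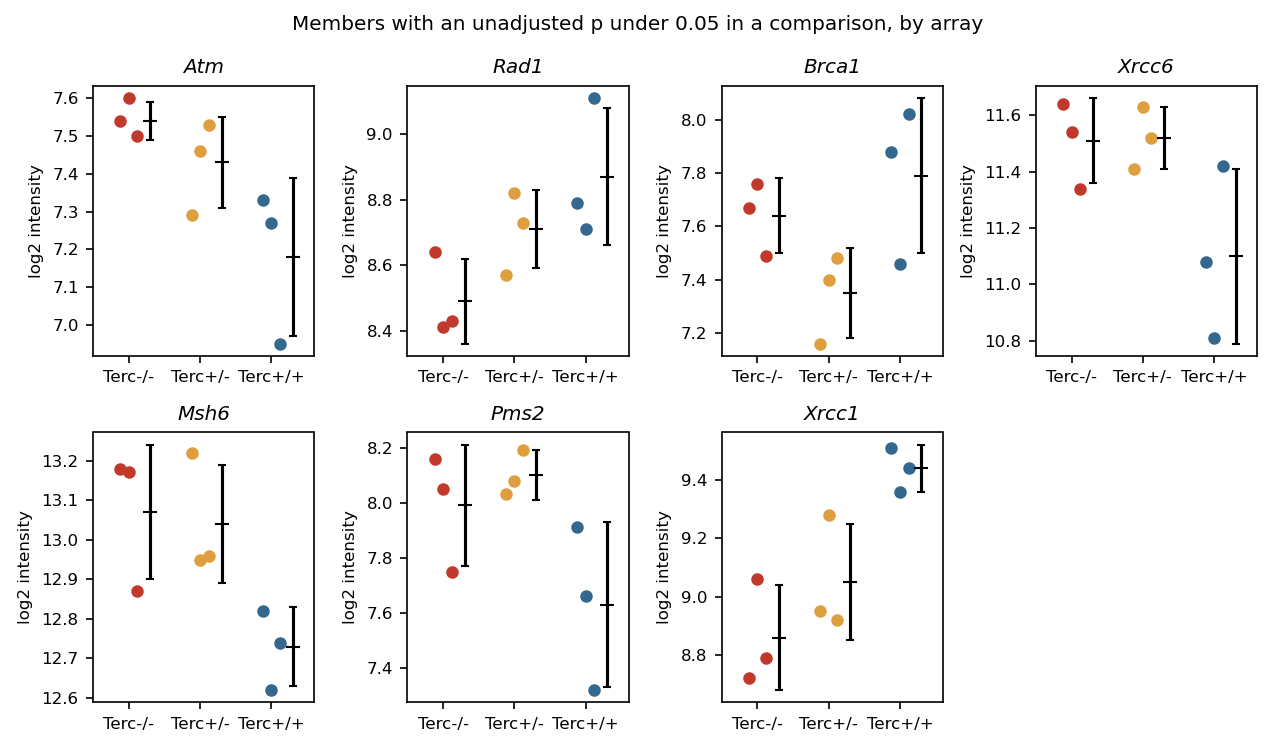
Points are log2 intensities of single arrays, replicates 1 to 3 from left to right within each genotype, and bars the mean ± SD (n = 3); the vertical axes do not start at 0. Xrcc1 (8.72 to 9.28 in mutants) lies below and Msh6 (12.87 to 13.22) above all Terc+/+ arrays, whereas the other 5 genes overlap between Terc+/+ and at least 1 mutant genotype. How many of all features separate in this way was not counted.

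The other 6 base excision and strand break genes had no unadjusted p under 0.05. Parp1, which marks strand breaks with poly(ADP-ribose), had 12.17, 11.72 and 11.64 in Terc-/-, 11.88, 12.04 and 12.19 in Terc+/-, and 12.50, 12.01 and 11.95 in Terc+/+, so all genotypes overlapped. The difference of Terc-/- from Terc+/+ was -0.31 with this probe and -0.49 and -0.30 with the other 2. Ung, which removes uracil from DNA, gave -0.25 and its 3 other probes -0.22, -0.52 and -0.56. Parp2 averaged 10.79 in each genotype, with an SD of at most 0.16, though its second probe gave -0.38. Lig3, the ligase bound to Xrcc1, averaged 7.61 ± 0.08 in Terc-/-, 7.79 ± 0.06 in Terc+/- and 7.76 ± 0.28 in Terc+/+. Apex1, which cuts the DNA backbone at sites that have lost a base, averaged 11.07 ± 0.35, 11.33 ± 0.36 and 11.12 ± 0.51, and Ogg1, which removes oxidised guanine, 6.17 ± 0.21, 6.21 ± 0.11 and 6.15 ± 0.23. All 7 genes of this group had a lower mean in Terc-/- than in Terc+/-, by up to 0.27, which is a count over genes on the same arrays.

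Among the crosslink and nucleotide excision genes, Fancd2, the protein that is ubiquitinated at crosslinks, averaged 8.48 ± 0.25 in Terc-/-, 8.63 ± 0.24 in Terc+/- and 8.49 ± 0.07 in Terc+/+. Ercc1, part of the nuclease that cuts 5′ of a lesion, averaged 8.34 ± 0.30, 8.32 ± 0.17 and 8.20 ± 0.63. The Fancg probe, for a subunit of the Fanconi core complex, lay near the array median (5.86, 5.89 and 5.91).

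The members' median range over the 9 arrays was 0.66, against 0.45 for all features, of which 50.1% had a mean under 6 and little room to vary. It ran from 0.17 in Palb2 and Xrcc5 to 1.51 in Hus1. The median SD within a genotype was 0.21 for members and 0.14 for all features. Terc+/+ replicate 3 had the highest value of 10 members and the lowest of 9, and Terc-/- replicate 3 the lowest of 11 (29.7%, against 13.0% of all features) and the highest of 0. These 2 arrays had the lowest and the highest feeder score.

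A total of 8 members changed with the feeder score across the arrays, in a limma model that also held the genotype. These were 21.6% of the members, and the same test called 10.4% of all features. The slope is the change in log2 intensity per unit of the score. It was negative in 6 members (16.2%, against 5.15% of all features) and positive in 2 (5.41%, against 5.29%). The count moved with single arrays: it ran from 2, without Terc+/+ replicate 2 or Terc-/- replicate 3, to 10, without Terc+/- replicate 1. All features were called at 4.14%, 5.66% and 12.1% in these fits, against 5.41%, 5.41% and 27.0% of the members. Among features with a mean above 6 the shares were alike, 21.2% of 33 members (7) and 22.9% of all 9322. These were not split by sign. The shares by sign above are set against all features, of which 50.1% had a mean under 6. In such bulk samples fewer cells of a type and less RNA per cell cannot be told apart, and the part of the feeder cells in these slopes was not tested.

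Blm had the smallest p of these slopes (-0.27, SE 0.04, adjusted p = 0.00406 with limma). Its values were 10.94, 10.84 and 10.45 in Terc-/-, 10.54, 10.84 and 10.98 in Terc+/-, and 10.61, 10.35 and 10.95 in Terc+/+. The 3 lowest arrays were the 3 with the highest feeder scores, 1 in each genotype. Pearson's r with the score was -0.897 (two-sided exact permutation p = 0.00141, and 0.0261 after adjustment for the 37 genes), and Spearman's rho was -0.912 (p = 0.00132 by exact permutation, 0.0488 after adjustment, n = 9). The 2 arrays whose scores lay farthest from the median were Terc+/+ replicate 3 and Terc-/- replicate 3, and r was -0.876 when both were left out. A second bright Blm probe had a slope of -0.26, and the 2 probes below the array median -0.05 and 0.08.

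Chek1 had a slope of -0.40 (SE 0.06, adjusted p = 0.00763 with limma). It had 7.11, 7.10 and 6.59 in Terc-/-, 6.75, 7.11 and 7.10 in Terc+/-, and 6.82, 6.18 and 7.38 in Terc+/+. The array with the lowest feeder score was its highest, and the 3 arrays with the highest scores its lowest. Pearson's r was -0.864 (exact permutation p = 0.00139, adjusted 0.0261) and rho was -0.833 (p = 0.00827 by exact permutation, 0.0612 after adjustment), and r was -0.808 without the 2 farthest arrays. Its 2 other probes, at means of 6.13 and 5.36, had slopes of 0.03 and -0.01, so the relation rests on 1 Chek1 probe.

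The other negative slopes were those of Brca1 (-0.20), Xrcc6 (-0.20), Wrn (-0.24) and Mre11a (-0.36), with adjusted p between 0.0235 and 0.0449 in limma. Their r over the 9 arrays was -0.502, -0.512, -0.716 and -0.829, and none passed adjusted over the 37 relations (exact permutation, adjusted p = 0.328, 0.328, 0.0937 and 0.061). Their rho was -0.333, -0.55, -0.683 and -0.883 (exact permutation, adjusted p = 0.594, 0.322, 0.169 and 0.057). Without the 2 farthest arrays r was -0.251, -0.65, -0.371 and -0.685. The brighter of the other Mre11a probes had a slope of -0.28, whereas the other Xrcc6 probes had 0.07 and 0.15 and the other Wrn probe 0.05.

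Ercc1 and Apex1 went the other way. Ercc1 had 8.02, 8.40 and 8.61 in Terc-/-, 8.47, 8.34 and 8.14 in Terc+/-, and 8.11, 8.86 and 7.62 in Terc+/+, with a slope of 0.37 (SE 0.08, adjusted p = 0.030 with limma). Within each genotype its highest array was the one with the highest feeder score. Its r was 0.832 (exact permutation p = 0.00451, adjusted 0.0556), its rho was 0.85 (p = 0.00607 by exact permutation, 0.0612 after adjustment), and r without the 2 farthest arrays 0.711. Apex1 had 10.68, 11.13 and 11.38 in Terc-/-, 11.56, 11.52 and 10.92 in Terc+/-, and 11.25, 11.55 and 10.56 in Terc+/+. Its slope was also 0.37 (SE 0.09, adjusted p = 0.037 with limma), and its second probe gave 0.38. For Apex1 r was 0.683 (exact permutation p = 0.0468, adjusted 0.171), rho was also 0.683 (p = 0.0503 by exact permutation, 0.169 after adjustment) and r without the 2 farthest arrays 0.523. Xrcc1 and Msh6 had slopes of -0.05 and -0.01, neither past the threshold (adjusted p = 0.748 and 0.932 with limma).

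**Figure D4:**
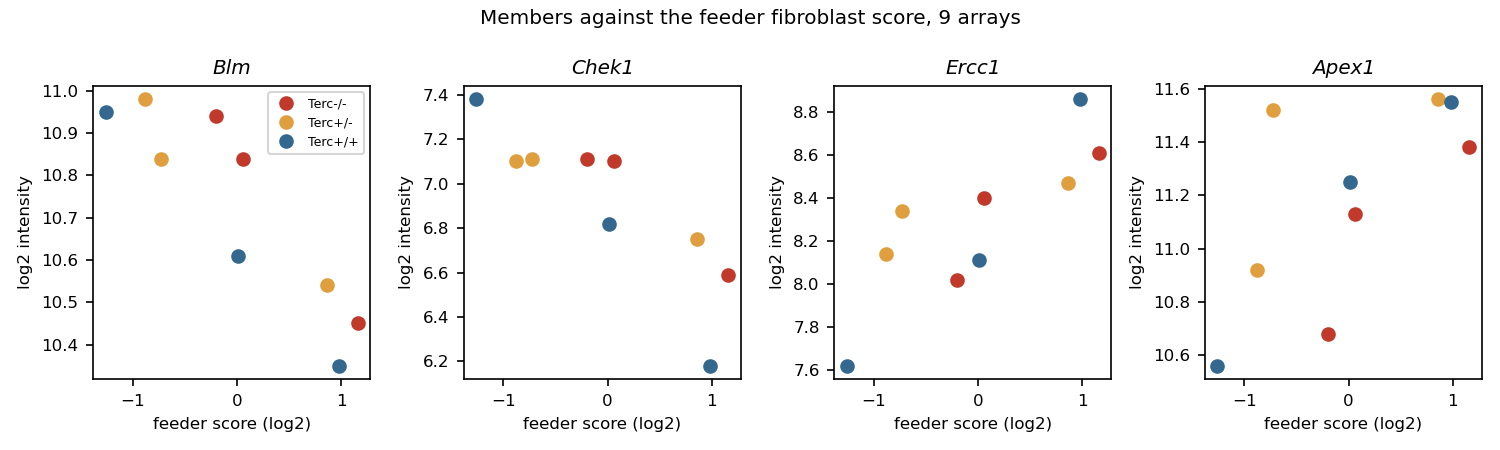
Each point is an array, with its feeder score on the horizontal axis and the log2 intensity of 1 gene on the vertical axis, coloured by genotype. Blm and Chek1 are lowest in the 3 arrays with scores of 0.86 to 1.16, and Ercc1 and Apex1 are lowest in the array with a score of -1.26.

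Other genes of the same pathways, 67 measured of 79 listed, held no called gene in any of the 3 comparisons with limma (0 of 67 each). In Terc-/- against Terc+/+ an unadjusted p under 0.05 was reached by 5 with a higher and 5 with a lower mean (14.9%, against 10.6% of all features), and the median was 0.03. The smallest p belonged to Rpa1, the large subunit of the protein that coats single-stranded DNA. Rpa1 had 12.80, 12.78 and 12.65 in Terc-/-, 12.86, 12.81 and 12.72 in Terc+/-, and 12.39, 12.43 and 12.26 in Terc+/+. All mutant arrays were above all Terc+/+ arrays, with differences of 0.38 and 0.44 (adjusted p = 0.131 and 0.180 with limma). Tdp1, Rnf168, Fancl and Rpa3 followed with differences of 0.34, 0.58, 0.49 and 0.44 in Terc-/-.

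On the lower side, Rad9a, the subunit that forms the clamp with Rad1 and Hus1, had 7.83, 7.58 and 7.63 in Terc-/-, 7.68, 8.16 and 8.15 in Terc+/-, and 8.58, 8.22 and 8.28 in Terc+/+. Its mutant arrays all lay below the Terc+/+ arrays, by means of -0.68 in Terc-/- and -0.36 in Terc+/- (adjusted p = 0.163 and 0.575 with limma). Mus81 (-0.46), H2ax (-0.66), Ddb2 (-0.42) and Xpc (-0.38) followed in Terc-/-. H2ax, the histone variant phosphorylated around breaks, had 10.76, 10.93 and 10.49 in Terc-/-, 10.19, 10.71 and 11.01 in Terc+/-, and 11.49, 11.58 and 11.09 in Terc+/+. Every mutant array was below every Terc+/+ array (adjusted p = 0.342 and 0.377 with limma). Of the 67 genes, 11 did not overlap between Terc-/- and Terc+/+ arrays, 4 higher and 7 lower (16.4%, against 14.9% of all features). Between Terc+/- and Terc+/+ arrays 13 did not, 11 higher and 2 lower (19.4%, against 12.6%). The share with all mutant arrays on 1 side of Terc+/+ was not counted. In Terc+/- against Terc+/+ 8 genes of this wider list had a higher and 3 a lower mean at an unadjusted p under 0.05 (16.4%, against 8.59%). The higher ones with the smallest p in limma were Rpa1 (0.44), Rnf168 (0.81), Fancl (0.54), Uimc1 (0.30) and Tdp1 (0.22). The lower ones were H2ax (-0.75), Mus81 (-0.35) and Rad9a (-0.36). In Terc-/- against Terc+/- there were 0 (against 1.76%).

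Targets of p53, the transcription factor that Atm and Chek2 activate, were not called in any comparison (0 of 18 measured, with limma). Cdkn1a, which halts the cycle, averaged 11.07 in Terc-/-, 10.75 in Terc+/- and 11.24 in Terc+/+, and Mdm2, the ligase that degrades p53, 12.06, 11.71 and 11.99. The median of the 18 was -0.053 in Terc-/- and -0.30 in Terc+/- against Terc+/+, with 3 lower at an unadjusted p under 0.05 in Terc-/- (16.7%, against 5.31% of all features), 6 lower in Terc+/- (33.3%, against 3.86%), and 0 higher in both. In Terc-/- against Terc+/- the mean was higher for 15 and lower for 3, with a median of 0.16 and 1 unadjusted p under 0.05 in limma (5.56%, against 1.76%). The array scores of the 18 were -0.12, 0.01 and 0.17 in Terc-/-, -0.01, -0.19 and -0.21 in Terc+/-, and 0.13, 0.09 and 0.12 in Terc+/+ replicates 1 to 3. Their relation to the feeder score was not tested. For 15 measured S phase and division genes, which are expressed together with many recombination genes in cycling cells, 0 were called. Their medians were 0.19 in Terc-/- and 0.12 in Terc+/- against Terc+/+. In Terc-/- 2 had an unadjusted p under 0.05 in limma (13.3%, against 10.6% of all features), Top2a higher (0.66) and Mcm2 lower (-0.37). In Terc+/- there were 0 (against 8.59%). The array scores of the 37 members and of the S phase genes lay between -0.14 and 0.08 and between -0.19 and 0.16.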

How the data were processed

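The value table of the series holds 1 value per probe and array. The unit was read from the values: they are log2 intensities that the authors deposited already normalized between arrays, since all 9 columns have almost the same quantiles. The sources used here do not give their software or background correction. A second deposited table has 18 columns named by chip and position, which match no label, and was not used here.

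All 23141 probes with a symbol in the platform annotation (2556 had none, 0 several) matched the RefSeq table by Entrez identifier. Each gene was represented by its brightest probe, and unnamed probes were kept as features. A linear model with 3 genotypes and moderated variances (limma 3.58.1, run in R 4.3.3; 6 residual and 2.03 prior degrees of freedom) was fitted on all 18666 features without a filter. All adjusted p-values without "exact permutation" come from limma, by Benjamini-Hochberg over all features, two-sided, with calls under 0.05. The slope on the feeder score was chosen after seeing the values. Fits were tested on simulated data whose effects were larger than those of the members. These tests do not show that effects of the members' size would be found. The number of arrays limits the precision (median SE 0.111). The members and lists were chosen with earlier results of these data known. Values of single arrays were given for members with an unadjusted p under 0.05 in any comparison, and in addition, chosen after their values were seen, for Hus1, Parp1, the slope genes Blm, Chek1, Ercc1 and Apex1, and 3 genes of the wider list.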

Additional observations from a re-analysis of the deposited data

How the results depend on the processing

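The absence of called members held under most settings. With array quality weights, which gave Terc+/+ replicate 1 a weight of 7.01 and Terc+/+ replicate 3 a weight of 0.214, 12 members were called in Terc-/- against Terc+/+ (Xrcc1, Xrcc6, Parp1, Rad1, Trp53bp1, Hus1, Lig3, Rad50, Atm, Rad17, Chek2 and Msh6), where 16.1% of all features were called, and 2 in Terc+/- against Terc+/+ (Xrcc6 and Trp53bp1), where 3.44% were. With the feeder score as a covariate 1 member was called in Terc+/- against Terc+/+, Brca1 (-0.47, adjusted p = 0.0448), where 1.18% of all features were. The count was 0 in all 3 comparisons without any 1 array, with the mean of all probes, with features above a mean of 6, with cyclic loess or repeated quantile normalization, with trend and robust variance, and when the remaining genotype was left out of the model. With the replicate block it was also 0. Same-numbered arrays did not deviate together (correlations from -0.602 to 0.447), so the numbers were not taken as pairs.

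The 14 differences of the 7 named members from Terc+/+ kept their sign under all 18 alternatives each. Of the 252 values, 245 were not called, and 7 were called with weights or the feeder covariate. Xrcc1 in Terc-/- ran from -0.69 to -0.52 (adjusted p from 0.0103 to 0.374).

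The 8 members called for a slope on the feeder score (10.4% of all features) were 5 with the mean of all probes (10.3% of all features), 7 with features above a mean of 6 (22.9%), 4 with cyclic loess (9.35%), 5 with trend and robust variance (10.7%), 5 with array weights (8.82%) and 4 without genotype in the model (7.67%). Without any 1 array the count ran from 2 to 10. It was 2 without Terc+/+ replicate 2 (4.14%) or Terc-/- replicate 3 (5.66%), 3 without Terc+/- replicate 3 (6.93%) or Terc-/- replicate 1 (7.11%), and 4 without Terc+/+ replicate 3 (8.82%) or Terc-/- replicate 2 (7.62%). Of 15 alternatives, Blm and Chek1 were called in 14 each, Ercc1 in 9, Brca1 in 8, Apex1 and Mre11a in 6 each, Wrn in 4 and Xrcc6 in 3. Blm and Chek1 were not called with the mean of all probes (-0.13 each), and the slope of Xrcc6 turned to 0.01 there. The causes were not tested.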
